A study of Mus musculus with 20 samples.

Results

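RNA of the whole striatum was compared between 2 mouse lines after d-amphetamine: a line selected for overactivity in the cage and its control line. The comparison takes the 5 overactive and the 5 control libraries from mice given amphetamine, 10 of the 20 libraries of the study, and every locus with a gene symbol that had enough counts to be tested (17206 of 26475). All mice were males of about 6 months, described as Collaborative Cross, a mouse population bred from several inbred founder strains. Each mouse of the 2 groups received d-amphetamine at 25 mg/kg, and the tissue was taken 2 hours later. The other 10 libraries, 5 a line, came from mice given saline in place of the drug, and they serve here as a second, separate measure of each line difference. The labels give no litter, generation or founder genome for either line, so genes that differ through the selection and genes that differ because the lines descend from different mice cannot be told apart. They also do not say how the replicates of a group are related. The p-values set each line difference against the spread between these mice, and do not cover how other lines would vary.

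Amphetamine makes dopamine nerve terminals release dopamine through its transporter, and the striatum receives the densest dopamine input of the forebrain. Its main cells are projection neurons of the direct pathway, which carry the dopamine receptor Drd1, and of the indirect pathway, which carry Drd2. Strong dopamine release switches on immediate early genes in these neurons and, later, genes of their peptides. Lines bred apart also come to differ at blocks of inherited DNA, where neighbouring genes can differ together whatever the treatment.

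The 10 amphetamine libraries held 31393788 to 53773028 counts, overactive library 2 the fewest and overactive library 3 the most, while the control libraries held 32633562 to 42361966. The first principal component of all 20 libraries carried 21.3% of the variance, with every control library below 0 and every overactive library above it. Within the overactive line, amphetamine libraries 2 and 3 and saline libraries 1, 3 and 4 stood highest on it, at 29.6 to 43.4. These were also the overactive libraries highest in markers of thalamus, hypothalamus and septum. The other overactive libraries stood at 0.79 to 19.3. Genes that define striatal projection neurons were abundant in both groups: Ppp1r1b, which encodes the dopamine-regulated phosphatase inhibitor DARPP-32, measured 1171 ± 124 CPM in the overactive and 1353 ± 202 CPM in the control libraries (SD, n = 5). CPM are counts relative to the scaled size of each library. Among the amphetamine libraries, the markers of thalamus, hypothalamus and septum were highest in overactive libraries 2 and 3. The calls and list medians that change without this pair of libraries are given with their values.

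After amphetamine 78 genes differed between the lines, 38 of them higher and 40 lower in the overactive line, at an adjusted p under 0.05 over all genes (edgeR). That is 0.453% of the genes tested, 0.221% higher and 0.232% lower. The largest difference was in the N-myc downstream regulated gene Ndrg4, listed at 0 in every mouse of the overactive line. Most other called differences were modest: 23 of the 78 reached a log2 fold change of 1 in size and 21 stayed under 0.5. Over all genes the median log2 fold change was 0.00, with 51.0% of genes positive and a median SE of 0.11. In 66 of the 78 the lowest library of one line lay above the highest of the other, as it did in 2.93% of all genes tested. The number of calls depended on single mice. It was 23 without overactive library 2, 35 without control library 3, 43 without control library 4 and 38 without control library 5, and each of the 78 kept its direction in these fits. Without overactive libraries 2 and 3 together, 16 genes were called, 13 of them among the 78. Of the 35 called genes that are named by rule, 10 kept their call without that pair: Ndrg4, Gm12541, Syce2, Gm2808, Serpinb6a, Wdr11, Tmem44, Preb, Tgfbr3 and 5031414D18Rik. At an unadjusted p under 0.05 stood 12.9% of all genes, 6.79% higher and 6.06% lower.

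Of the 78 called genes, 68 are protein coding, 2 are long intergenic RNAs, 1 is an antisense RNA and 2 are pseudogenes. Another 3 had no match in the annotation, and 2 are loci that carry several symbols, one of them the small nucleolar RNA host Gas5. The locus of 46 among 73 matched single-symbol genes overlaps another annotated gene, on the opposite strand for 40. Whether reads were counted by strand is not given in the sources used here, so reads of such a pair cannot be told apart.

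Ndrg4 encodes a cytoplasmic protein that is abundant in neurons and heart. The locus lies at chr8:95678010-95715119 (GRCm38, as in the deposited table). Control libraries 1 to 5 measured 2095, 2384, 2153, 2314 and 2346 CPM, and all 5 overactive libraries are listed at 0. Against a floor of 3 counts per library the overactive level was at least 33787-fold lower (edgeR adjusted p = 1.72e-14). The saline mice repeated this, with 0 in every overactive library and a control mean of 2187 CPM. The other 3 members of its family did not pass: the log2 fold change was 0.24 for Ndrg1 (adjusted p = 0.36), 0.01 for Ndrg2 and 0.03 for Ndrg3. Of 3138 genes that reached 100 CPM in any library, Ndrg4 and Cwc22 were the ones listed at 0 in any. A value of exactly 0 at such a level can also be a failed estimate at the locus, which was not tested.

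Cwc22, chosen after its values were seen, encodes a splicing factor that brings the exon junction complex to spliced RNA. Its locus, chr2:77875186-77946372, was listed at 0 in all 10 overactive libraries. The control amphetamine mice split widely, at 30.97, 1169, 1247, 28.96 and 2746 CPM in libraries 1 to 5 (adjusted p = 0.0281). Libraries 1 and 4 thus lay far below the other 3, and a spread this large was not seen in the Ndrg4 values of the same mice. Against the floor of 3 counts per library the overactive level was at least 15627-fold lower than the control mean. The saline control mice split too, with library 3 at 29.1 CPM and the others at 1369 CPM or more.

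**Figure D1:**
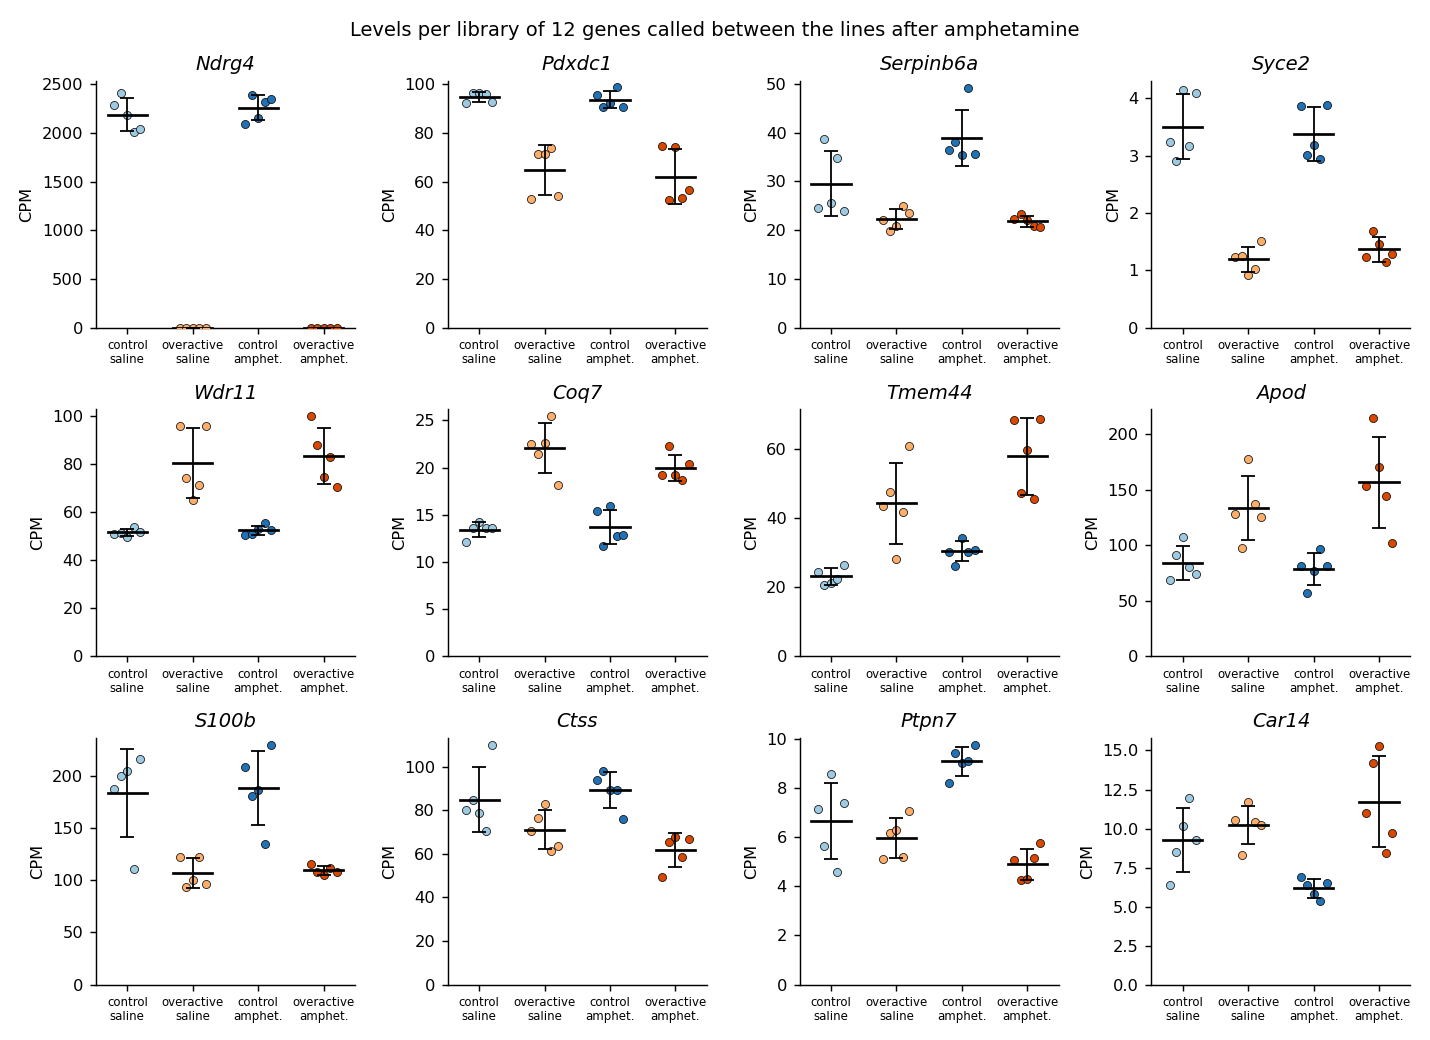
Level (CPM, linear axis from 0) of 12 genes called between the lines after amphetamine, in each of the 20 libraries; points are mice, the bar is the group mean and the whiskers 1 SD (n = 5). Ndrg4 is at 0 in every overactive library, Wdr11, Coq7 and Tmem44 are higher in the overactive line under both treatments, and Ptpn7 and Car14 separate the lines after amphetamine while the saline groups overlap.

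Among the lower genes, Serpinb6a, an intracellular inhibitor of serine proteases, measured 22.4, 23.4, 22.1, 20.95 and 20.6 CPM in overactive libraries 1 to 5 and 36.5, 38.0, 35.4, 49.1 and 35.7 CPM in the control libraries. The groups did not overlap, and control library 4 stood above the other control mice. The log2 fold change was -0.83 (SE 0.12, adjusted p = 0.0039), and in saline it was -0.41 (adjusted p = 0.0982). Of the 6 clade B serpins tested it was the only one called: Serpinb6b, its closest copy by name, had a log2 fold change of 0.67 in the other direction (SE 0.19, adjusted p = 0.14). The 2 coding sequences share 81.05% of their bases in the longest annotated transcripts. The locus of Serpinb6a overlaps 5 other genes, Nqo2 and Ripk1 among those on the opposite strand, so its reads cannot be assigned to it alone.

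Pdxdc1, a decarboxylase-like gene that uses vitamin B6, measured 74.5, 52.5, 74.2, 53.2 and 56.5 CPM in the overactive and 95.8, 90.8, 92.4, 99.0 and 90.7 CPM in the control libraries. All overactive mice lay below all control mice, and within the overactive line libraries 1 and 3 stood higher than the other 3. The log2 fold change was -0.59 (SE 0.10, adjusted p = 0.0137), close to the -0.55 of the saline mice. Tgfbr3, which encodes the TGF-beta co-receptor betaglycan, measured 12.4 to 17.3 CPM in the overactive and 17.7 to 27.5 CPM in the control libraries (log2 -0.70, SE 0.12, adjusted p = 0.0137). Its gap was narrow, since overactive library 3 at 17.3 CPM nearly met control library 3 at 17.7 CPM. B9d1, a component of the gate at the base of cilia, measured 5.65 to 7.41 CPM against 8.95 to 15.4 CPM (log2 -0.79, SE 0.14, adjusted p = 0.0167). Without overactive library 2 these 3 calls were lost, with adjusted p of 0.0516 for Pdxdc1, 0.05002 for Tgfbr3 and 0.0545 for B9d1.

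Several called genes that were lower differed by a small, even step across all mice. Preb, the exchange factor that starts COPII coat assembly at exit sites of the endoplasmic reticulum, measured 48.9, 50.0, 54.7, 46.5 and 53.8 CPM in the overactive and 61.9, 61.9, 65.0, 62.1 and 64.8 CPM in the control libraries (log2 -0.31, SE 0.05, adjusted p = 0.0135). Sec23ip, which binds the COPII coat, had a mean of 45.3 ± 2.1 against 56.7 ± 2.5 CPM (SD, n = 5; log2 -0.32, SE 0.06, adjusted p = 0.0118). Gatad1, a chromatin-binding zinc finger gene, measured 56.5 ± 3.3 against 70.4 ± 3.1 CPM (log2 -0.32, adjusted p = 0.00917). Bub3, of the spindle checkpoint, measured 46.4 ± 1.8 against 55.5 ± 2.7 CPM (log2 -0.26, adjusted p = 0.0135). None of these 4 overlapped between the lines after amphetamine, and all 4 overlapped in saline, where their log2 fold changes were -0.16 for Preb, -0.22 for Sec23ip, -0.12 for Gatad1 and -0.11 for Bub3. Without overactive library 2 the calls of Sec23ip (adjusted p = 0.0516) and Bub3 (0.0508) were lost, and without overactive libraries 2 and 3 that of Gatad1 too (0.0588).

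The remaining lower genes named by rule were mostly at low levels. Syce2, which encodes a protein of the meiotic synaptonemal complex, measured 1.23, 1.69, 1.46, 1.15 and 1.29 CPM in the overactive and 3.87, 3.004, 3.19, 2.94 and 3.89 CPM in the control libraries (log2 -1.31, SE 0.16, adjusted p = 0.000392). Its locus overlaps Gcdh on the opposite strand. Gm12541, without a match in the annotation, measured 1.55 to 2.12 against 3.95 to 8.19 CPM (log2 -1.85, adjusted p = 0.000392). Both differences were also called in saline, at -1.56 for Syce2 and -1.38 for Gm12541. The pseudogene Gm2808 had a mean of 0.038 against 2.63 CPM (log2 -5.87, adjusted p = 0.00291), and the antisense RNA E430024P14Rik had 0.66 against 4.51 CPM (log2 -2.77, adjusted p = 0.0118). Both lie on chromosome 17 in loci that overlap 5 other genes each, and their reads cannot be assigned to them alone. Ccdc59 measured 20.7 against 29.5 CPM (log2 -0.51, adjusted p = 0.0143), a call lost without control library 3 (0.0509). The call of E430024P14Rik was lost without overactive libraries 2 and 3 (0.105). With limma-voom the calls of Gm2808 (adjusted p = 0.0512) and E430024P14Rik (0.0551) were both lost. In saline both genes were called, but control library 4, at 0.022 and 0.380 CPM, lay below every overactive library.

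On the higher side, Wdr11, which acts in trafficking from endosomes to the Golgi and in ciliary signalling, measured 100.3, 88.0, 74.9, 83.0 and 70.6 CPM in the overactive and 50.6, 51.0, 52.9, 55.3 and 52.5 CPM in the control libraries. The control mice lay close together, and the overactive mice spread over a wider range above them. The log2 fold change was 0.67 (SE 0.10, adjusted p = 0.0039), against 0.64 in saline. Tmem44, a membrane protein gene, measured 68.3, 47.1, 59.5, 45.4 and 68.5 CPM against 30.2, 26.02, 34.3, 30.2 and 30.8 CPM (log2 0.93, SE 0.16, adjusted p = 0.0118), and 0.94 in saline. Both genes kept their call when any single amphetamine library was left out.

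Genes of metabolism and transport were among the higher calls. Coq7, the hydroxylase of coenzyme Q synthesis, measured 19.2, 22.3, 19.3, 18.7 and 20.4 CPM in the overactive and 15.4, 11.7, 15.9, 12.8 and 12.8 CPM in the control libraries (log2 0.54, SE 0.09, adjusted p = 0.0118). It was the 1 called member of 12 coenzyme Q genes tested, whose median log2 fold change was 0.01. Mfsd7b, now Flvcr1, a heme and choline transporter gene, measured 37.0 to 46.7 CPM against 25.6 to 30.1 CPM (log2 0.58, SE 0.09, adjusted p = 0.00684). Car14, a membrane carbonic anhydrase, measured 10.97, 14.2, 15.3, 8.43 and 9.71 CPM against 6.89, 6.36, 5.83, 5.33 and 6.48 CPM (log2 0.92, SE 0.17, adjusted p = 0.0143). Its saline groups overlapped, with a log2 fold change of 0.15 (adjusted p = 0.684), and its call was lost without overactive library 2 (0.0516). Without overactive libraries 2 and 3 the adjusted p was 0.0948 for Coq7 and 0.0588 for Mfsd7b, so these calls were lost too.

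Other higher genes included Mrc2, the collagen uptake receptor Endo180, which measured 12.6, 12.2, 9.93, 8.43 and 10.6 CPM in the overactive and 6.24, 3.39, 3.89, 3.19 and 6.10 CPM in the control libraries (log2 1.23, SE 0.23, adjusted p = 0.0167). The saline mice gave 1.26. Itpr2, an inositol trisphosphate receptor that releases calcium in astrocytes, measured 25.7 to 34.8 against 22.4 to 24.1 CPM (log2 0.35, adjusted p = 0.021). The calls of Mrc2 (adjusted p = 0.0532) and Itpr2 (0.0546) were lost without overactive library 2, that of Mrc2 also without control library 3 (0.0593) or 4 (0.0519), and that of Itpr2 without control library 5 (0.0580). The locus 5031414D18Rik, now Rubcnl, an autophagy gene, ranged from 3.05 to 14.7 CPM in the overactive and from 0.830 to 1.80 CPM in the control libraries (log2 2.86, SE 0.51, adjusted p = 0.0143). The centrin gene Cetn4 had a mean of 11.3 against 5.91 CPM (log2 0.94, adjusted p = 0.0118), the RNA-binding gene Rbm7 7.62 against 4.29 CPM (0.83, adjusted p = 0.0241), and the mitochondrial transcription terminator Mterf, now Mterf1a, 4.97 against 3.42 CPM (0.54, adjusted p = 0.0241). The unmatched RNA A130040M12Rik had 18.8 against 8.78 CPM (log2 1.10, adjusted p = 0.0118). For Mrvi1 the groups overlapped at 2.80 to 9.19 against 2.10 to 2.87 CPM (log2 1.15, adjusted p = 0.0241), and overactive library 2 was the highest. The call of 5031414D18Rik was lost without control library 3 (0.0509). Those of Mterf, Rbm7 and Mrvi1 were lost without any 1 of 5 to 7 of the 10 libraries, with adjusted p up to 0.0580, 0.0667 and 0.0642. Without overactive libraries 2 and 3 the adjusted p was 0.0948 for Cetn4 and 0.0978 for A130040M12Rik.

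Glial, vascular and matrix genes gave 5 calls through their marker lists. S100b, a calcium-binding protein of astrocytes, measured 115.5, 107.9, 104.9, 111.7 and 108.2 CPM in the overactive and 208.8, 181.2, 187.1, 135.1 and 229.8 CPM in the control libraries (log2 -0.78, SE 0.15, adjusted p = 0.0223). It was the 1 called member of 21 astrocyte markers, of which 16 had a positive fold change. Apod, a lipid carrier made by oligodendrocytes, measured 153.5, 214.5, 170.4, 144.0 and 101.6 CPM against 81.2, 56.6, 76.6, 96.6 and 80.8 CPM (log2 0.999, SE 0.18, adjusted p = 0.0167). The groups of both genes did not overlap, although overactive library 5 lay just above control library 4 for Apod. Without overactive library 2 the adjusted p was 0.0607 for S100b and 0.0545 for Apod. Without control library 3 it was 0.0529 and 0.0509, and S100b also lost its call without control library 1 (0.050002) or 5 (0.0608) and with the thalamic marker score as a covariate (0.0578).

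Ctss, the lysosomal protease cathepsin S of microglia, measured 49.6, 65.5, 67.8, 58.6 and 67.0 CPM in the overactive and 94.0, 97.9, 89.5, 89.3 and 76.2 CPM in the control libraries (log2 -0.53, SE 0.11, adjusted p = 0.0405). Rgs5, a regulator of G protein signalling in pericytes, measured 13.7, 16.3, 14.1, 19.99 and 20.9 CPM against 14.3, 8.44, 8.64, 8.95 and 6.89 CPM (log2 0.85, SE 0.18, adjusted p = 0.0352). Its groups overlapped through control library 1. Col6a2, a collagen VI chain, measured 21.8, 21.01, 16.4, 25.4 and 28.3 CPM against 11.3, 13.1, 14.2, 12.1 and 8.26 CPM (log2 0.94, SE 0.20, adjusted p = 0.0442), with no overlap. These 3 calls were near the threshold: each was lost when any of several single libraries was left out, with adjusted p up to 0.0878 for Ctss, 0.0918 for Rgs5 and 0.108 for Col6a2. In bulk tissue, fewer cells of a type and less RNA per cell cannot be told apart for any of these genes.

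Gstp2, a glutathione transferase, was the 1 called member of 40 genes of glutathione, glyoxalase and aldehyde detoxification. It measured 0.143, 1.0005, 1.13, 1.11 and 0.857 CPM in overactive libraries 1 to 5 and 0.1499, 0.160, 0.261, 0.101 and 0.144 CPM in the control libraries (log2 2.37, SE 0.44, adjusted p = 0.0167). Overactive library 1 lay among the control mice, and the other 4 were clearly above them. In saline the log2 fold change was 3.85 (adjusted p = 0.000339). The call after amphetamine was lost without overactive library 2 (0.0516), control library 4 (0.0536) or control library 5 (0.0580), in the 10 amphetamine libraries alone (0.0902) and with limma-voom (0.154). Its neighbour copy Gstp1 did not pass (54.3 ± 5.5 against 44.4 ± 8.6 CPM, log2 0.29, adjusted p = 0.37). The coding sequences of Gstp2 and Gstp1, 633 bases each in GENCODE M21, differ at 12 bases and share a stretch of 303 identical bases, so reads within it fit both genes and the counts of Gstp2 are uncertain. The first 120 coding bases are shown because 6 of the differing bases, in capitals, lie there.
Gstp2: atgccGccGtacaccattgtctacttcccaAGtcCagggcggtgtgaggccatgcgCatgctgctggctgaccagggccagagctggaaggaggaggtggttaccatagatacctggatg
Gstp1: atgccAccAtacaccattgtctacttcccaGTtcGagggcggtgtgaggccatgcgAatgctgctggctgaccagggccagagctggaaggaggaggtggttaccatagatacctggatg
These are reference sequences, and the alleles of the lines may differ from them.

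In that detoxification list 33 of 40 members had a positive fold change after amphetamine, with a median log2 of 0.07. Glo1, which clears methylglyoxal, measured 294 ± 60 CPM in the overactive and 188 ± 25 CPM in the control libraries (SD, n = 5), with no overlap, yet did not pass (log2 0.65, SE 0.18, adjusted p = 0.122), while in saline it was called at 1.34. Aldh1a1, chosen after its values were seen, oxidises retinal and dopamine-derived aldehydes and measured 39.5 ± 9.0 against 20.2 ± 2.9 CPM without overlap (log2 0.97, SE 0.22, adjusted p = 0.0615). The list score, the mean deviation of the members' log2 CPM from their mean over all 20 libraries, was 0.11 to 0.22 in overactive libraries 2, 3 and 4, and -0.09 and -0.07 in libraries 1 and 5. It was -0.25 to -0.08 in the control libraries. Libraries 2 and 3 were also the highest in thalamic, hypothalamic and septal markers. With the score of those markers as a covariate 29 of 40 members were positive (median 0.06), and the call of Gstp2 was lost (adjusted p = 0.0538). Without libraries 2 and 3, 28 of 41 members tested were positive (median 0.07) and none was called.

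The saline mice, which share no library with the amphetamine mice, showed the same line differences for most of the 78 genes. There 191 genes were called (1.11% of those tested), and 36 genes were called in both comparisons, 46.2% of the 78 and 18.8% of the 191, all in the same direction. Of the 78, 77 had the same sign in saline, as did 70.6% of all genes tested. In saline 67 of the 78 had an unadjusted p under 0.05 with the same sign, against 17.3% of all genes with an unadjusted p under 0.05 in either direction. The saline groups did not overlap, in the same direction, for 38 of the 78, and 4.26% of all genes had saline groups that did not overlap. The median size of the log2 fold change over the 78 was 0.69 after amphetamine, the treatment that chose them, and 0.51 in saline. Markers of the surrounding tissue had fold changes of mostly one sign in the saline mice too, with no member of the 3 lists called: 22 of 26 thalamic, hypothalamic and septal markers (median log2 0.67) and 16 of 17 choroid plexus markers (0.57) were positive there, and 2 of 24 cortical and hippocampal markers (-0.60). With the cortical score as a covariate 21 genes were called in saline in place of 191, and 58 after amphetamine. In saline that score was -0.83 to -0.27 in the overactive and -0.37 to 0.52 in the control libraries. It thus largely followed the line there, and effects of the score and of the line cannot be told apart. All 20 libraries share 1 estimate of the spread in the fit that gave the 78 and the 191 calls. With the saline libraries fitted alone, an alternative chosen after the data were seen, 75 of the 78 were tested, 74 had the same sign and 64 of them an unadjusted p under 0.05.

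**Figure D2:**
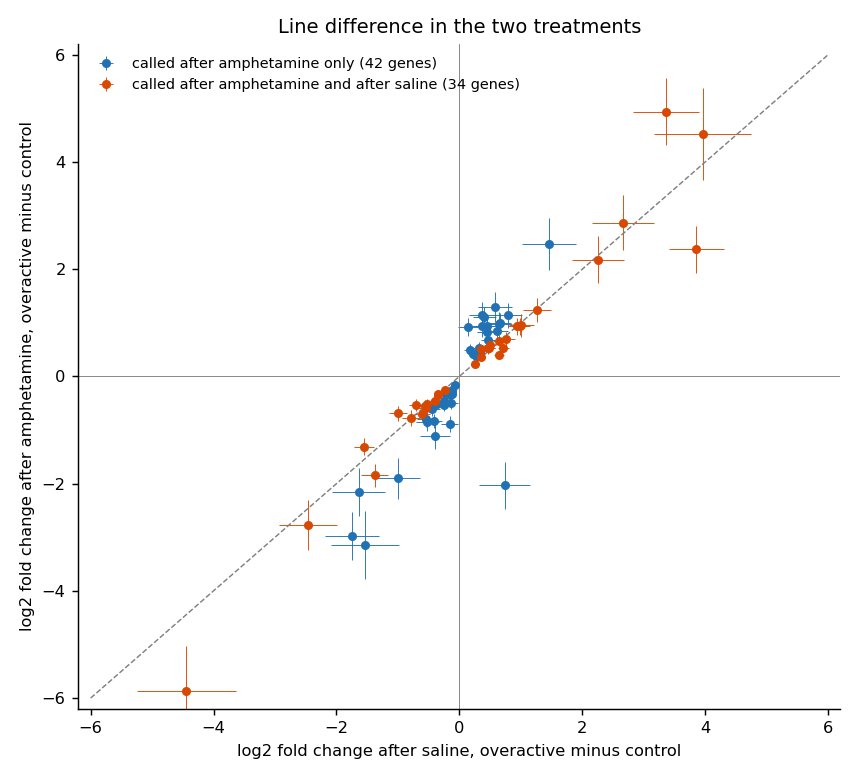
Log2 fold change of the overactive over the control line after saline (x axis) and after amphetamine (y axis) for 76 of the 78 genes called after amphetamine, with whiskers of 1 SE; the dashed line marks equal values, and Ndrg4 and Cwc22, listed at 0 in the overactive line, lie beyond the axes. Of the genes plotted, 34 were also called after saline and 42 were not, and 1 gene lies on the opposite side of 0 in the 2 treatments.

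No gene passed the test of whether the line difference itself changed with the treatment (0 of 17206, or 0% of genes tested, smallest adjusted p 0.9999, edgeR), and 510 genes had an unadjusted p under 0.05. DESeq2 and limma-voom also called 0, with 570 and 697 genes at an unadjusted p under 0.05. Of the 78 called genes 13 had an unadjusted p under 0.05 in this test, against 510 of all 17206 genes tested. The 78 were chosen by their difference after amphetamine, which is part of this test, so that choice favours small p-values among them. Being called under one treatment and not the other is not by itself a difference between treatments. Ptpn7, a phosphatase that acts on MAP kinases, was among the 13. It measured 5.08, 4.25, 4.31, 5.14 and 5.75 CPM in the overactive and 8.19, 9.43, 9.02, 9.10 and 9.77 CPM in the control libraries after amphetamine. Its log2 fold change was -0.89 (SE 0.14, adjusted p = 0.00809) after the drug and -0.16 in saline, an unadjusted p of 0.00169 for the difference. The call after the drug was lost without overactive libraries 2 and 3 (adjusted p = 0.0948). For Car14 the difference had an unadjusted p of 0.00334, for Gatad1 0.0158, for A130040M12Rik 0.0159, for Mrvi1 0.0223, for Serpinb6a 0.0239, for Gstp2 0.0296 and for Bub3 0.0358. The gene with opposite signs in the 2 treatments, Tcf23, singled out after its values were seen, is a transcription factor gene under 1 CPM in both lines (log2 -2.03 after amphetamine, 0.74 in saline, unadjusted p = 0.000182).

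Dopamine receptors, striatal peptides and genes of neuronal activity gave no call between the lines after the drug. Drd2 measured 160.2, 149.1, 172.1, 170.1 and 202.0 CPM in the overactive and 201.6, 194.5, 192.7, 184.0 and 232.7 CPM in the control libraries (log2 -0.24, SE 0.12, adjusted p = 0.417). Drd1a, now Drd1, measured 181.4 to 284.4 against 236.6 to 275.6 CPM (log2 -0.24, SE 0.13, adjusted p = 0.46). In both receptors overactive library 5 was the mouse that brought the groups to overlap, and the other 4 overactive libraries lay below every control library.

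The opioid peptide precursor Penk, of indirect pathway neurons, measured 882 to 1256 against 1101 to 1365 CPM (log2 -0.24, SE 0.13, adjusted p = 0.445). Pdyn, the dynorphin precursor of direct pathway neurons, had a log2 fold change of -0.21 (SE 0.16, adjusted p = 0.599), and Tac1, the substance P precursor, of 0.00 (SE 0.12, adjusted p = 0.993). Of the genes of dopamine handling, the vesicular transporter Slc18a2 had 0.02 (SE 0.11), the synthetic enzyme Th -0.42 (SE 0.25) and the dopamine transporter Slc6a3 0.52 (SE 0.45, at 0.331 against 0.228 CPM). All of these groups overlapped.

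The activity-regulated genes varied more between mice of 1 line than between the lines. Fos measured 21.3, 10.9, 7.55, 17.7 and 12.02 CPM in the overactive and 5.75, 20.1, 9.11, 19.0 and 27.9 CPM in the control libraries (log2 -0.24, SE 0.41, adjusted p = 0.84). Arc, an effector at active synapses, ranged from 76.3 to 215.3 CPM in the overactive and from 40.0 to 215.4 CPM in the control libraries (log2 -0.02, SE 0.45). For Npas4 the log2 fold change was 0.01 (SE 0.27), and for Egr1 it was -0.32 (SE 0.26, adjusted p = 0.626). With SEs of this size, modest line differences in Fos or Arc were not detectable with 5 mice a group.

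**Figure D3:**
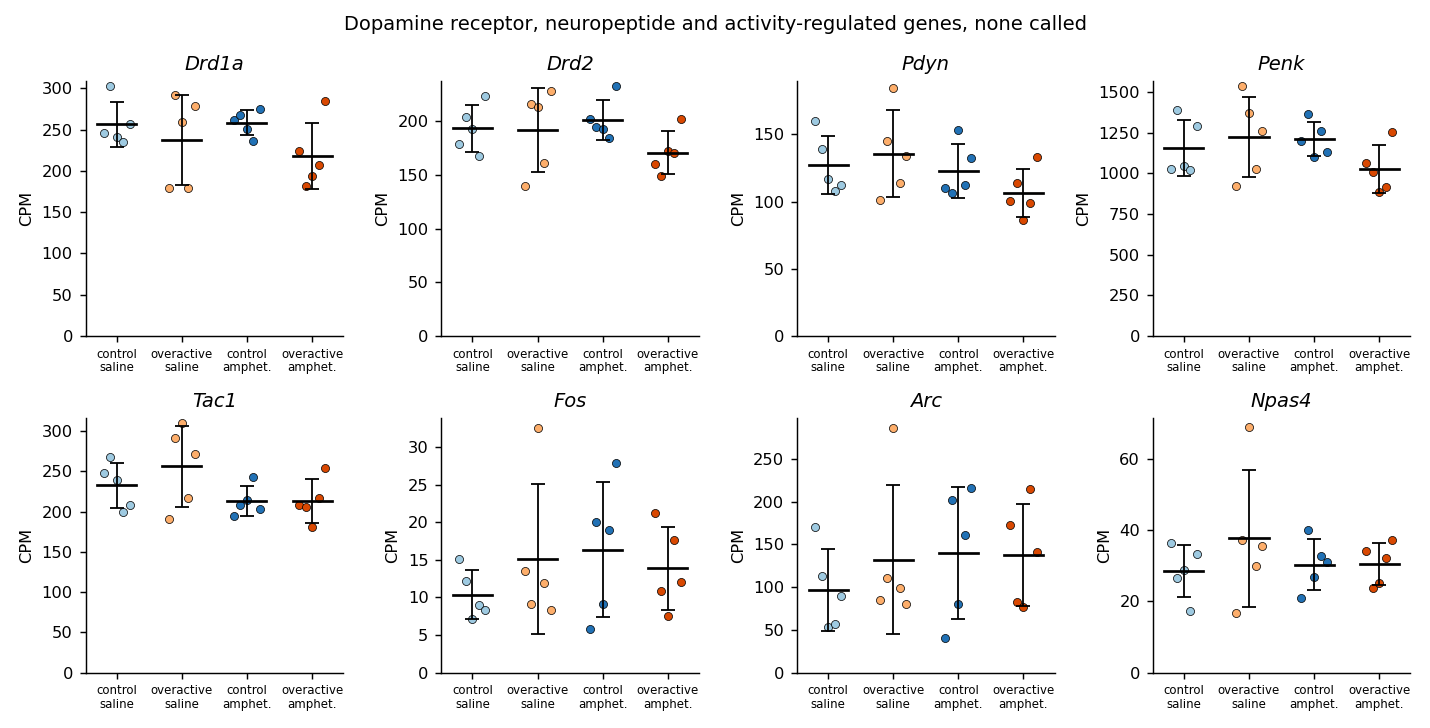
Level (CPM, linear axis from 0) of 2 dopamine receptor genes, 3 peptide precursor genes and 3 activity-regulated genes in each of the 20 libraries; points are mice, the bar is the group mean and the whiskers 1 SD (n = 5). The amphetamine groups of the 2 lines overlap in all 8 genes, and Fos and Arc spread several-fold within each line.

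None of 37 immediate early genes was called, 26 had a negative fold change and 0 had an unadjusted p under 0.05, as did 12.9% of all genes, with a median log2 of -0.18. That sign rested on overactive libraries 2 and 3: without them 23 of 37 were positive and the median was 0.04. Of 28 delayed activity-regulated genes 20 were negative (median -0.11, 0 called), and without that pair 13 were (median 0.06).

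Genes of striatal projection neuron identity were nearly all slightly lower in the overactive line, none past the test. Of 29 tested 28 had a negative fold change, the median log2 was -0.21, and 11 had an unadjusted p under 0.05, all lower, as did 6.06% of all genes. In saline the median was -0.05. The median stayed negative under the 2 other scalings and both marker score covariates tried (27 to 29 of 29 negative). Its size did not hold: with the thalamic score as a covariate the median was -0.12, and without overactive libraries 2 and 3 it was -0.17, with 3 members at an unadjusted p under 0.05 in either fit. Arpp21, a cAMP-regulated phosphoprotein gene with the smallest p of the list, measured 1079.9 ± 163 against 1431 ± 108 CPM (SD, n = 5; log2 -0.41, SE 0.11, adjusted p = 0.125), with no overlap. Of 31 dopamine receptor and cAMP signalling genes, which share members with that list, 29 were negative (median -0.23), and the median was -0.10 with the thalamic covariate and -0.13 without that pair. Of 10 indirect pathway markers 9 were negative (median -0.23, or -0.10 with the covariate), and of 10 direct pathway markers 7 (median -0.12, or -0.06). The score of the identity markers was -0.27 to -0.10 in overactive libraries 1 to 4 and 0.11 in library 5, and 0.00 to 0.22 in the control libraries.

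**Figure D4:**
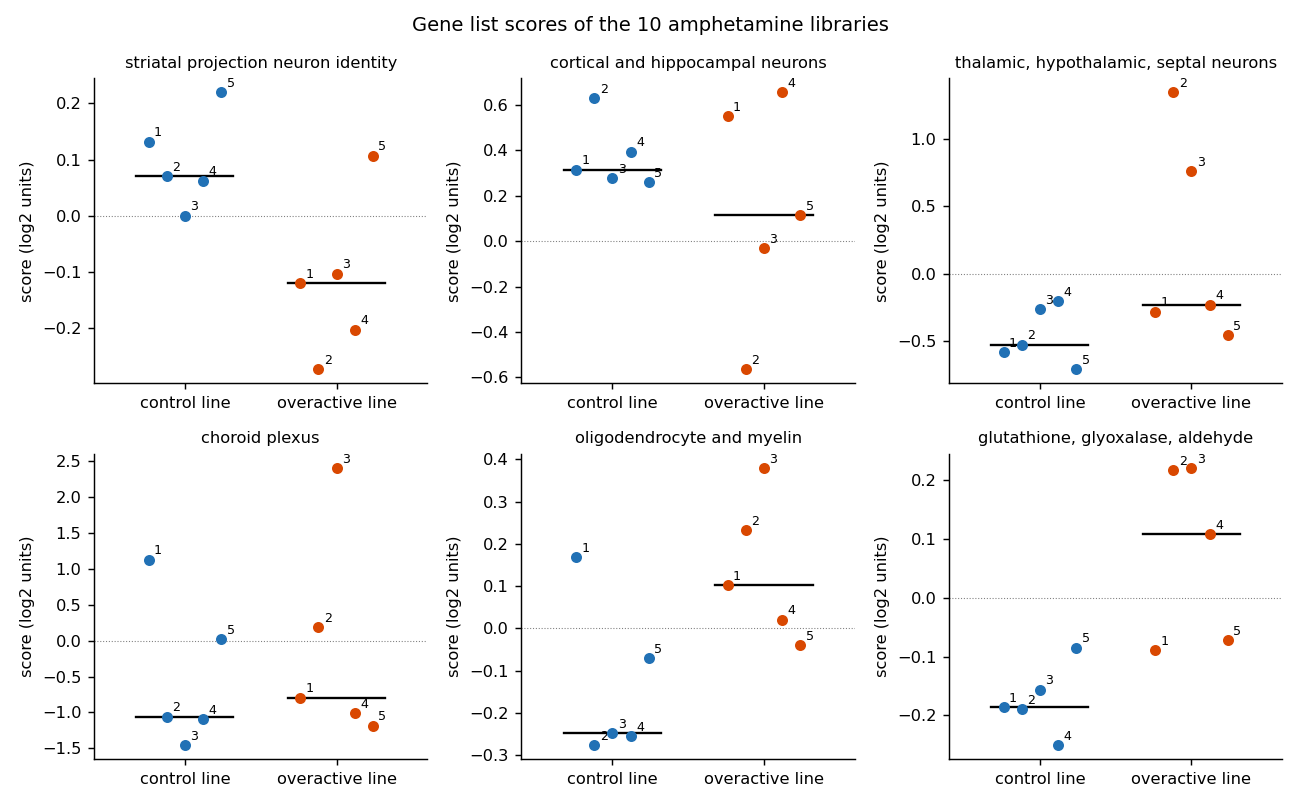
Score of 6 gene lists in each of the 10 amphetamine libraries (mean deviation of the members' log2 CPM from their mean over all 20 libraries); points are mice, numbered by replicate, and the bar is the group median. Overactive libraries 2 and 3 are the highest in thalamic, hypothalamic and septal markers, and overactive library 3 and control library 1 in choroid plexus markers.

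Markers of tissue around the striatum moved beside these values. Of 26 thalamic, hypothalamic and septal neuron markers 25 were positive (median log2 0.63, 0 called, 6 higher at an unadjusted p under 0.05, against 6.79% of all genes). Their summed level was 603 to 1311 CPM in the overactive and 586 to 725 CPM in the control libraries. The score was 1.35 and 0.76 in overactive libraries 2 and 3 and -0.71 to -0.21 in the other 8, and without those 2 the median was 0.05. Choroid plexus markers were positive in 17 of 17 (median 0.78, 0 called) but negative in 17 of 17 without overactive libraries 2 and 3 (median -0.84). Cortical and hippocampal excitatory neuron markers were negative in 20 of 24 (median -0.18), and positive in 19 of 24 without that pair. With the thalamic score as a covariate, chosen after the data were seen, 34 of the 78 kept their call and 78 their direction.

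Most members of most glial and vascular lists had positive fold changes, and leaving out overactive libraries 2 and 3 changed some of these lists more than others. Of 21 oligodendrocyte and myelin markers 18 were positive (median 0.21, 1 called, Apod, 9 at an unadjusted p under 0.05), and of 13 oligodendrocyte precursor markers 12 (0.21, 0 called). Over all genes tested 51.0% were positive, 0.221% were called higher and 6.79% were higher at an unadjusted p under 0.05. Without overactive libraries 2 and 3 the myelin median was 0.10, with 0 called and 3 at an unadjusted p under 0.05. In that fit 1345 of 17400 genes had an unadjusted p under 0.05 in either direction. Of 25 endothelial and mural markers 19 were positive (0.16, 1 called, Rgs5), of 22 meningeal and fibroblast markers 19 (0.31, 1 called, Col6a2) and of 15 ependymal markers 14 (0.38, 0 called). Without the pair 20 of 25 endothelial and mural markers were positive (median 0.17, 0 called), as were 19 of 22 meningeal and fibroblast markers (0.25, 0 called). The ependymal markers turned without the pair, 15 of 15 negative (median -0.31), and the meningeal median was 0.06 with the thalamic covariate. Astrocyte markers had a median of 0.08 and microglia and complement markers of -0.08 (9 of 23 positive, 1 called, Ctss).

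Most other lists lay near the median of all genes. Of 81 cytoplasmic ribosomal protein genes 72 were positive, by a small step (median 0.08, 0 called). Nuclear oxidative phosphorylation genes had a median of 0.03, glycolytic enzymes of -0.02, cholesterol synthesis genes of -0.07, and heat shock genes of -0.01. Glucocorticoid-responsive genes had 0.03, core clock genes -0.07, potassium channels 0.00 and SNARE and vesicle fusion genes -0.03. The subunits of AMPA, kainate and NMDA receptors had a median of -0.06, metabotropic glutamate receptors of -0.07 and GABA receptor subunits of 0.04. Serotonin and cannabinoid genes had -0.08, opioid and tachykinin genes 0.02, interneuron markers 0.06 and genes of dopamine synthesis, storage, uptake and breakdown 0.05. Antigen presentation genes had -0.02, interferon-stimulated genes -0.04, and signal recognition particle genes -0.01. None of the lists in this paragraph had a called member, and without overactive libraries 2 and 3 their medians lay between -0.08 and 0.05, some with the other sign. Over all 39 lists 913 different genes were tested and 9 were called (0.986%), against 78 of all 17206 genes tested (0.453%). The lists were chosen with earlier results of these data known, so this comparison is not a test of the lists.

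The called genes were spread over 17 chromosomes, and some lay side by side. Of the 78, 24 (30.8%) had another called gene within 1 Mb, and 9.20% of the genes that were not called had a called gene that near. They formed 10 groups, and 9 of these held calls in both directions. The largest spans chr5:30232618-31054623 (GRCm38), with 5 called genes of 21 tested. Preb, Ept1, which makes phosphatidylethanolamine, Tcf23 and 0610007C21Rik were lower there, and Dpysl5, a neuronal guidance signalling gene, was higher (57.6 CPM in the overactive against 43.0 CPM in the control line, log2 0.42, adjusted p = 0.0294). On chromosome 8 Syce2 was lower and Wdr83, a scaffold of MAP kinase signalling, was higher (21.6 ± 1.6 against 13.4 ± 2.5 CPM, log2 0.69, SE 0.12, adjusted p = 0.0135, and 0.106 without overactive libraries 2 and 3). On chromosome 7 Sec23ip was lower and Wdr11 higher within 1 Mb. Tmem44 and Apod on chromosome 16 were the 1 group with a single direction, both higher. Chromosome 5 held 11 calls among 1094 genes tested (1.01%), and chromosomes 15, 18, X and Y held none. Genes other than those named by rule were chosen for their position after the data were seen.

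**Figure D5:**
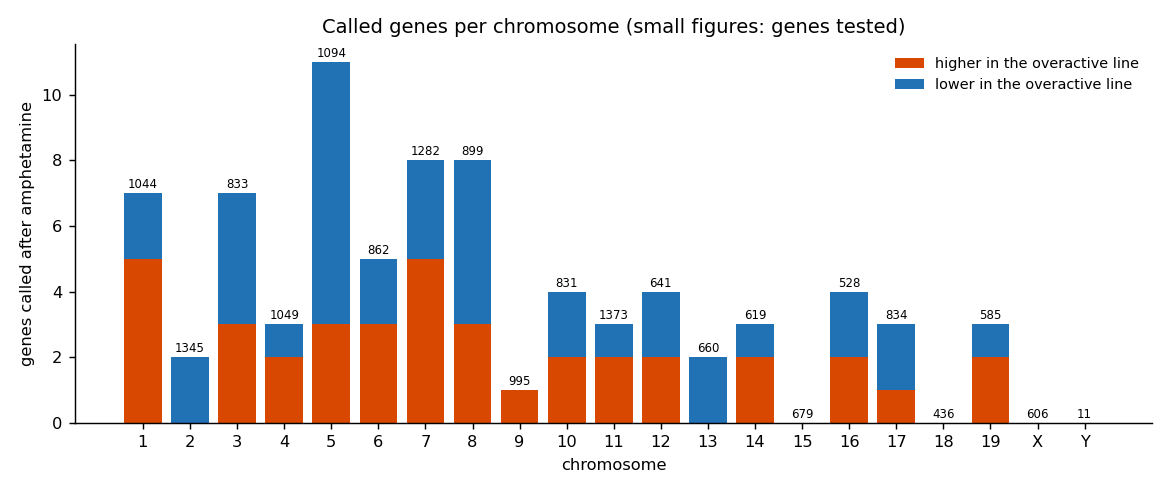
Number of genes called between the lines after amphetamine on each chromosome, split by direction; the small number over each bar is the number of genes tested there. Chromosome 5 has 11 called genes, the most of any, and both directions occur on most chromosomes with 2 or more calls.

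The promoters of the called genes were read for the cAMP response element TGACGTCA, the sequence through which cAMP signalling and CREB can act in dopamine-responsive neurons. It is its own reverse complement, so 1 search covers both strands. Of 61 called genes with a promoter in RefSeq (GRCm38.p6, from upstream of each gene's start to just past it) 4 held it, 6.56%, against 386 of 11726 genes tested, 3.29%. The 4 windows around it are shown on the gene's strand, with the element in capitals.
Mterf1a, chr5:3893951-3894010, minus strand: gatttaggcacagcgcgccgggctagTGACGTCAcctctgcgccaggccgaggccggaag
C030029H02Rik, chr7:136268171-136268230, plus strand: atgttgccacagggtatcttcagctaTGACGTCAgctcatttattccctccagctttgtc
Zfp868, chr8:69625170-69625229, minus strand: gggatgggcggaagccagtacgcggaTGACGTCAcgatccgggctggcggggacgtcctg
Trmt5, chr12:73286701-73286760, minus strand: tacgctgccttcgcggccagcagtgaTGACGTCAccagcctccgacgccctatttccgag
After amphetamine Mterf1a was higher in the overactive line (log2 0.54), as were C030029H02Rik (0.98, adjusted p = 0.0442) and the zinc finger gene Zfp868 (0.69, adjusted p = 0.0442), while the tRNA methyltransferase gene Trmt5 was lower (-0.33, adjusted p = 0.0483). Zfp868 and Trmt5 were also called in saline, at 0.75 and -0.35. The AP-1 element TGANTCA, searched on both strands, was held by 8.20% of the called genes and 6.48% of the genes tested, and the E-box CACGTG by 9.84% and 10.95%. A match describes the reference sequence and is not a measured site.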

How the data were processed

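RNA-seq was made from the striatum of 20 mice. Expected counts per locus, unscaled, come from the authors in a single deposited table. The submitters' processing notes name the builds mm10 and GRCm38. The aligner, the counter and the handling of strand are not given in the sources used here. Column names matched the labels of all 20 samples. Of 37051 loci 10576 had no symbol (0.65% of counts) and were left out, and 93.9% of values were whole within 0.01. Table starts were shifted by 1 to count from 1.

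Expected counts were rounded and analysed in R 4.3.3 with edgeR 4.0.16: filterByExpr, TMM scaling, 1 quasi-likelihood model with 1 mean per group over 20 libraries, two-sided tests, Benjamini-Hochberg adjustment over 17206 genes and a threshold of 0.05. The rule for named genes took, among single-symbol genes called with at least 1 CPM over the 10 amphetamine libraries, the 15 with the smallest p in each direction, up to 3 called members of each of 39 lists, any gene called in the test of the difference between treatments, and 13 set genes. The members, lists and tests were chosen with earlier results of these data known. Each SE was derived from the edgeR test, as the size of the log2 fold change divided by the square root of the F statistic. It is therefore approximate, and unreliable where the fold change is very close to 0. Scores used log2 CPM with a prior count of 2. Alternatives used DESeq2 1.42.0 and limma 3.58.1. Figures were drawn with matplotlib 3.10.9 in Python 3.11.15. The model was tested on simulated data.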

Additional observations from a re-analysis of the deposited data

Results flagged for a closer look

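Each named gene and each list score was searched, within each amphetamine group of 5, for a library that stood far from the other 4 (Dixon's ratio). Of 173 groups 12 were flagged, and chance flags about 1 in 20.

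Of the genes, Gm2808 stood out at 0.128 CPM in overactive library 3 (next 0.021 CPM), Tgfbr3 at 17.3 CPM in the same library (next 13.3 CPM), and Gstp2 at 0.143 CPM in overactive library 1 (next 0.857 CPM). In the control group Serpinb6a reached 49.1 CPM in library 4 (next 38.0 CPM), Rgs5 14.3 CPM in library 1 (next 8.95 CPM) and Th 13.3 CPM in library 2 (next 8.01 CPM).

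All 6 list scores so marked were in overactive libraries. Library 5 had the lowest score of dopamine synthesis, storage, uptake and breakdown genes (-0.0987) and the highest of direct pathway markers (0.0587). Library 3 had the lowest score of heat shock and protein folding genes (-0.248). Library 2 had the highest scores of astrocyte markers (0.236) and of oligodendrocyte precursor markers (0.182), and library 1 the lowest of microglia and complement markers (-0.254).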

How the results depend on the processing

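The 78 genes called after amphetamine all kept their direction wherever they could be tested, under every alternative run, while the number of calls moved. DESeq2 called 322 (166 higher, 156 lower) and 764 in saline, and kept all 78. Limma-voom with sample weights called 297 in saline. With only the 10 amphetamine libraries 50 were called, 24 of them lower, and 38 of the 78 kept their call. Of the 35 named genes called, 25 kept it in that fit. Bub3, B9d1, Apod, A130040M12Rik, Gstp2, Itpr2, Mterf, Mrvi1, Rgs5 and Col6a2 lost it there, at adjusted p of 0.0508 to 0.124. The cortical marker score as a covariate left 25 higher calls and 21 in saline, and the thalamic score 41 (19 higher, 22 lower). Without overactive libraries 2 and 3 there were 16 calls (5 higher, 11 lower), and the cause was not tested. Leaving out each amphetamine library in turn gave 23 to 77 calls, 10 to 42 higher, 13 to 40 lower, and 172 to 240 in saline, and 0 for the difference between treatments. With the replicate number as a replicate block 51 genes were called, 23 of them higher. The numbers give no pairing in the labels. Deviations of same-numbered amphetamine libraries of the lines correlated at -0.10 to -0.00, and those of differently numbered libraries at -0.15 to 0.13. With a range this wide, these values cannot decide whether same-numbered samples are related. Of the 35 named genes called, 16 were called in each of the 10 fits that left out 1 library. Ndrg4, Gm12541, Syce2, Serpinb6a, Wdr11, Tmem44 and Preb were called under all alternatives run, and Mterf, Rbm7, Mrvi1, Rgs5, Ctss and Col6a2 lost the call in 5 or more of those 10 fits. Of the called genes 10 lie under 1 CPM, where counting error is largest.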
